A study of Mus musculus with 8 samples.

Results

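*Cish*, *Socs1* to *Socs7*, *Spsb1* and *Spsb2* encode regulators that carry a SOCS box. The 10 genes were taken by symbol from a deposited RNA-Seq table of 24303 genes, and all 10 were found in it. They were chosen by their levels and fold changes across the 4 conditions of this same table, so those values are given below as a description, no P value is printed for a member, and whether a member met the criteria for a differentially expressed gene (DEG) is part of that description and not independent evidence. The mean level over the libraries was 50 normalized counts or more for all 10, which *Spsb1* reached through the T_Dysf libraries alone.

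The SOCS box is a short stretch of protein that binds elongins B and C and a cullin, and through them brings ubiquitin ligase activity to whatever the rest of the protein holds. CIS and the SOCS proteins bind phosphorylated cytokine receptors or JAK kinases through an SH2 domain, and several are themselves induced by STAT factors, which makes them feedback brakes on cytokine signaling. The SPSB proteins carry a SPRY domain in place of the SH2 domain, and SPSB1 and SPSB2 are known for targeting inducible nitric oxide synthase. In CD8+ T cells CIS, the product of *Cish*, is known as a brake on T cell receptor and IL-2 family signaling, and SOCS1 as a brake on IFN-γ and IL-2 family signaling.

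All libraries came from P14 CD8 T cells of the spleen, whose transgenic receptor recognizes the LCMV peptide GP33, and which were purified by sorting before RNA was taken. Naive cells were first activated for 2 days on plates coated with anti-CD3 and anti-CD28, and every condition was then kept in medium with IL-2 and IL-15. Effector cells were collected on day 7, and for them the labels say no more. The paper describes the sequenced ones as antigen-experienced and of the effector stage. In a flow cytometry figure it names its day 7 cells Effector 7d-stim. Acute-2d cells saw no peptide after the activation and were collected on day 19. Acute-7d cells received GP33 repeatedly until day 7, then none, and were collected on day 19. T_Dysf cells received GP33 repeatedly until day 19 and TGF-β1 continuously from day 7. Each of the 4 conditions had 2 libraries, which the series describes as biological replicates. No library had late GP33 without TGF-β1 or the reverse, so the parts of the 2 agents cannot be told apart. The Effector comparisons differ in the day of collection as well. Effector also differs from T_Dysf and Acute-2d in a title prefix and in sex-linked genes, given below, while the Acute-7d pair is split. In Effector against T_Dysf or Acute-2d these differences cannot be told apart from the condition.

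Depth ran from 19382147 to 24856224 reads on genes per library. Values are normalized counts, that is, estimated reads per gene that the authors had divided by the size factor of each library. A DEG here has at least a 2-fold change and an adjusted P under 0.05 (limma's moderated test, Benjamini-Hochberg adjusted over all genes). Both Effector libraries and Acute-7d replicate 1 carry the prefix RESUB in their titles, and the same 3 libraries stood at 53.5 to 114.9 normalized counts of *Xist* against 21871 to 30427 in the other 5. The Y-linked genes ran the other way, with *Eif2s3y* at 1933.5 to 2120 in these 3 and at most 7.8 in the other 5. *Ddx3y* stood at 1334 to 2161 and at most 2.6, and *Kdm5d* and *Uty* split alike. These are the patterns of male and of female cells. The labels used here give no donor sex, and the paper used mice of both sexes. Prefix and sex-linked pattern cannot be told apart. The summed CD8 T cell markers lay at 54830 to 70140 normalized counts outside T_Dysf and at 118300 to 122600 in T_Dysf, while the summed CD4 T cell markers reached at most 26.1, the B cell markers 160.8, the erythroid markers 42.6 and the myeloid markers 709.2. The CD8 T cell markers did not rise alike in T_Dysf. *Cd3e* (24510 and 24790 against 9573 to 12670), *Cd3g* (37130 and 32350 against 9549 to 14600) and *Cd8a* (35910 and 36160 against 11170 to 22010) rose most. *Cd3d* (9563 and 9966 against 6700 to 8697) and *Cd8b1* (11600 and 10990 against 6169 to 10220) rose less, and *Cd247* did not (3888 and 4003 against 3556 to 4225). The summed NK cell markers lay between 1073 and 4545, with *Eomes* at 828 to 3510, *Klrb1c* at 242.5 to 1384 and *Ncr1* at 1.78 to 105. In bulk RNA, more cells that express a gene and more RNA per cell cannot be told apart.

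Sequence around the RefSeq starts of the members that carried the main contrasts is shown because *Cish* and *Socs3* are known STAT targets and *Spsb1* was the member with the largest fold change. RefSeq start sites on GRCm38.p6 were given for 6 of the 10 members. Their windows of 250 bases before and 50 bases after the start were searched on both strands for 3 motifs that do not overlap in any member: the STAT-type TTCNNNGAA, found in 8.3% of all 32851 windows, the AP-1-type TGANTCA, found in 7.81%, and the SMAD palindrome GTCTAGAC, found in 0.213%. *Cish* held 2 STAT-type matches, which 0.457% of all windows did, at bases 0 to 8 and 11 to 19 counted from 0 at the start, inside the 5′ untranslated region (chr9:107296659-107296678, plus strand). *Socs3* held 1 STAT-type match, at bases −154 to −146 from its RefSeq start (run shown: chr11:117969367-117969616, minus strand). In GENCODE *Socs3* reaches from 117966079 to 117970047, so this run and its match lie inside the annotated gene and not upstream of it. The windows of *Socs1*, *Socs4*, *Spsb1* and *Spsb2* held none of the 3 motifs as spelled here. Capitals mark the STAT-type matches, and all runs read 5′ to 3′ on the strand of the gene:
Cish: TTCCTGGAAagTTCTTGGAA
Socs3: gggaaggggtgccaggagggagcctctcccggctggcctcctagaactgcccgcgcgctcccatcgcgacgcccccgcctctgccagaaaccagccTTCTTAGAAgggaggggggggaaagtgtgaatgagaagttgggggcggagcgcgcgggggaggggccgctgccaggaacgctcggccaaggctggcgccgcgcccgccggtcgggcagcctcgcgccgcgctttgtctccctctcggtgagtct
Socs1: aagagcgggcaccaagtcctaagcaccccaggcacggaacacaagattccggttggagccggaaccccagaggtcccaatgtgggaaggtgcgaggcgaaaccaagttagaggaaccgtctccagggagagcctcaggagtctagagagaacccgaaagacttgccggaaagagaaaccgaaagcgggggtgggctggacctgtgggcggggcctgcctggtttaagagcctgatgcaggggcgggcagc
Spsb1: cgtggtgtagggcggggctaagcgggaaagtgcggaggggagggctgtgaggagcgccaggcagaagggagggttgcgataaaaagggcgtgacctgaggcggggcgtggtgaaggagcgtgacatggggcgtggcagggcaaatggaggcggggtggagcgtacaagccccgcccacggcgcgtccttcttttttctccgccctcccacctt
The *Socs1* run (chr16:10785537-10785786, minus strand) ends at the RefSeq start, and the *Spsb1* run (chr4:149955044-149955256, minus strand) ends 37 bases before it. GC made up 61.2% of the *Socs1* run, 71.6% of the *Socs3* run and 66.2% of the *Spsb1* run, against a median of 52.4% for the upstream part of all windows.

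*Spsb1* was close to absent outside T_Dysf cells and well expressed in them. The gene lies on the minus strand of chromosome 4 (149896283 to 149955043, GRCm38). It stood at 1.83 and 6.02 normalized counts in Effector replicates 1 and 2, 8.43 and 3.24 in Acute-2d, 1.12 and 4.04 in Acute-7d, and 1359 and 1437 in T_Dysf. The T_Dysf libraries did not overlap the other 6, whose 3 conditions overlapped each other. In reads, the 2 T_Dysf libraries together held about 3189, against 5 in Acute-7d, 8 in Effector and 11 in Acute-2d. The mean normalized count in T_Dysf, 1398 ± 55.2 (SD, n = 2), was 542 times that in Acute-7d (95% exact counting interval 226 to 1620), 240 times that in Acute-2d (133 to 478) and 356 times that in Effector (185 to 847). These intervals cover counting error only.

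On the log2(normalized count + 1) scale the fold change of *Spsb1* was 8.74 ± 0.74 (SE) against Acute-7d, 7.79 ± 0.74 against Acute-2d and 8.29 ± 0.74 against Effector. By this fold change it ranked 5 among the 24303 genes against Acute-7d and 9 against both Acute-2d and Effector. The values depend on the number added before the log, since with 10 in place of 1 they were 6.82, 6.49 and 6.68. *Spsb1* was a DEG in all 3 comparisons, and in each it stayed so without any of the 8 libraries in turn. Against Effector it no longer met the criteria with a term for the RESUB libraries (7.04).

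*Spsb2*, its closest relative in the list, lies on the plus strand of chromosome 6 (124808661 to 124810619) and was low everywhere. It stood at 48.4 and 56.2 normalized counts in Effector, 39.0 and 95 in Acute-2d, 59.1 and 48.5 in Acute-7d, and 77.7 and 132.6 in T_Dysf. Acute-2d replicate 2 lay between the T_Dysf libraries, so these conditions overlapped. The log2 fold change of T_Dysf against Acute-7d was 0.91 ± 0.51 (SE), and *Spsb2* was no DEG in any of the 6 comparisons. It shares 34 exon bases with *Tpi1* on the other strand, a glycolytic gene at 2309 to 2499 normalized counts in T_Dysf and 9106 to 18321 elsewhere. Whether counting used strand is not given in the sources used here, so reads from those bases cannot be assigned to either gene.

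**Figure D1:**
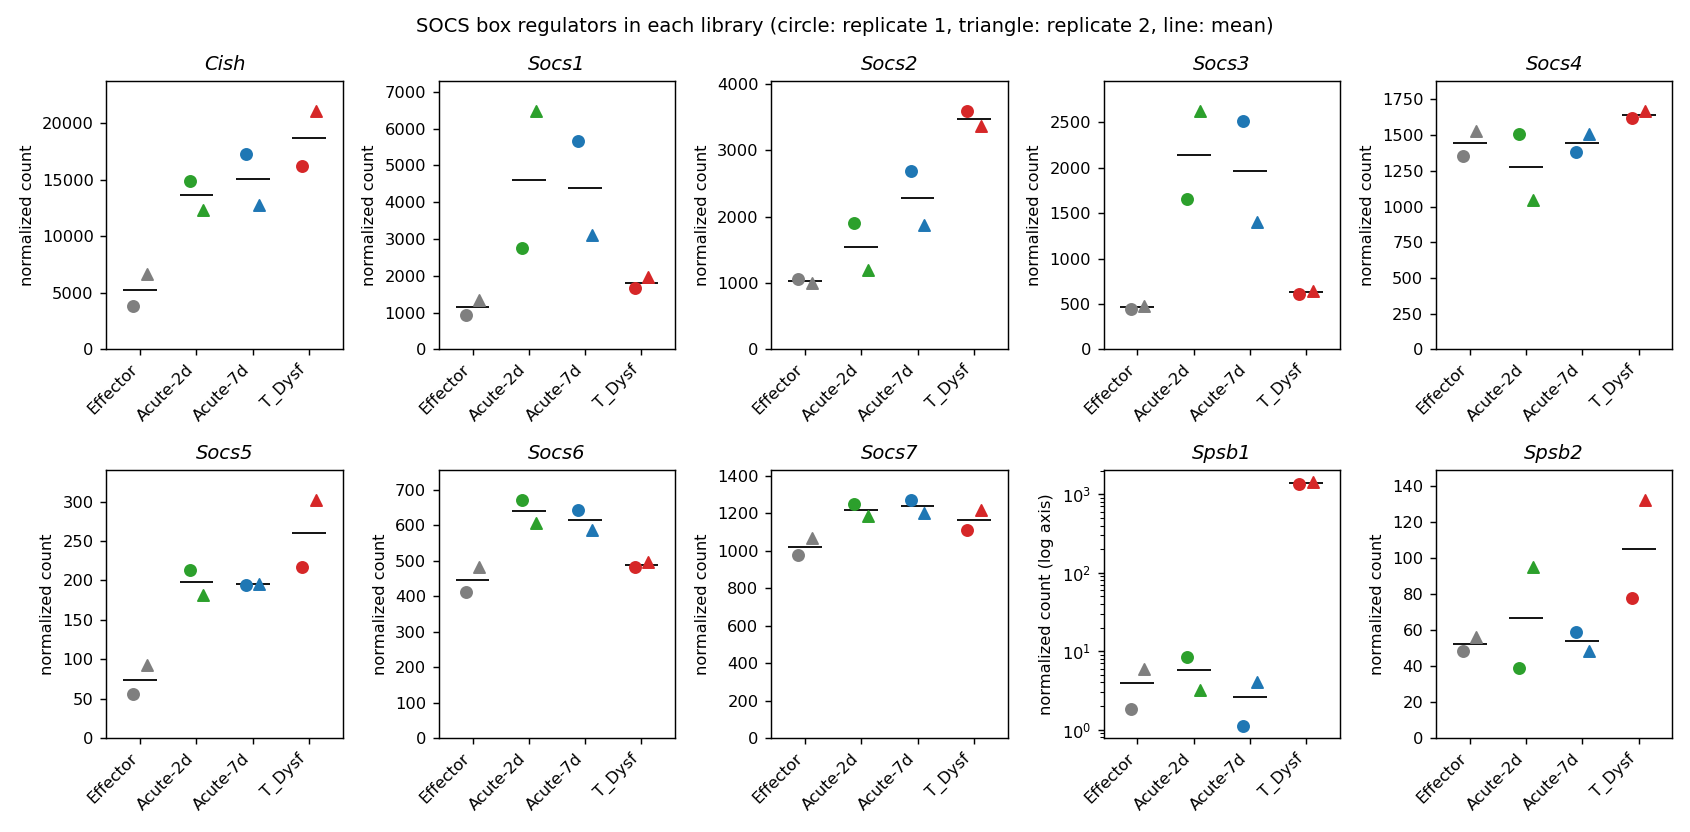
Normalized counts of the 10 members by library, with a point for each library, a line at the mean of each condition and an axis of its own for each gene, which is a log axis for *Spsb1*. *Spsb1* sits between 1.12 and 8.43 in 6 libraries and at 1359 and 1437 in T_Dysf, while *Socs1* and *Socs3* sit higher in both Acute conditions than in Effector and T_Dysf.

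The genes around *Spsb1* did not share its size of change. With some part within 300 kb of *Spsb1* the table held 9 other genes, a set chosen after the values of *Spsb1* were seen. The nearest start site belonged to *H6pd*, which encodes an enzyme of the pentose phosphate pathway in the endoplasmic reticulum, and its log2 fold change in T_Dysf was 0.37 against Acute-7d, 0.37 against Acute-2d and 0.15 against Effector, none a DEG. *Clstn1*, a calsyntenin, was higher in T_Dysf than in Acute-2d (log2 fold change 1.14) and Effector (1.61) and was no DEG against Acute-7d (0.91). *Eno1*, which encodes the glycolytic enzyme enolase, was lower in T_Dysf in all 3 comparisons (−1.36, −1.85 and −1.61). The other 6 neighbours were DEGs in none of them.

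**Figure D2:**
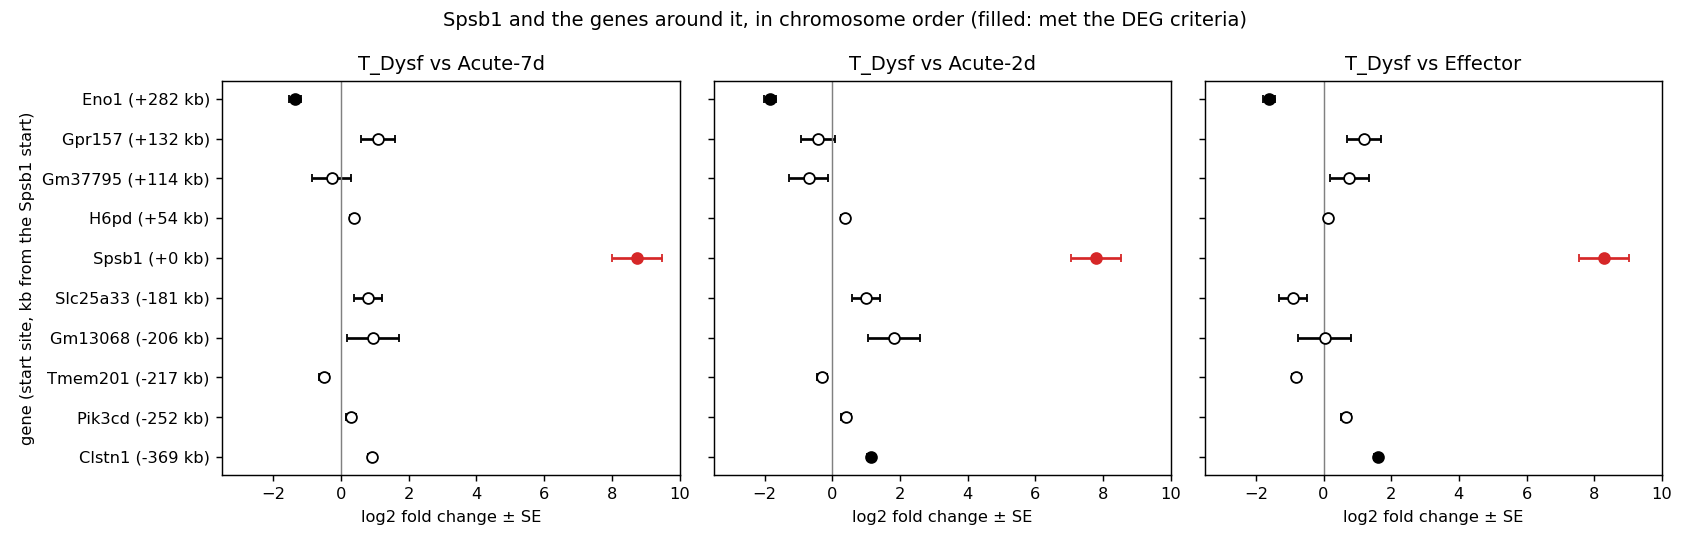
Log2 fold change ± SE of *Spsb1* and its 9 neighbours in the table, in chromosome order, for T_Dysf set against each other condition (n = 2 libraries per condition, filled points are DEGs). *Spsb1* lies at 8.74, 7.79 and 8.29, and the highest neighbour is *Gm13068* at 1.83 against Acute-2d.

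*Cish* had the highest level of the members per kilobase of exon, and it was lowest in Effector cells. It lies on the plus strand of chromosome 9 (107296026 to 107302784), with the 2 STAT-type matches shown above at its RefSeq start. It stood at 3820 and 6678 normalized counts in Effector, 14939 and 12368 in Acute-2d, 17295 and 12795 in Acute-7d, and 16245 and 21105 in T_Dysf. The 3 conditions of day 19 overlapped from one to the next, and both Effector libraries lay below all of them. Exon length here is the union of all annotated exons of a gene, 6419 bases for *Cish*. Per kilobase of exon its mean level was 818 normalized counts in Effector, above 93.3% of genes. On that scale Acute-2d cells had 2130, Acute-7d cells 2340 and T_Dysf cells 2910, above 97.8%, 98.0% and 98.4% of genes.

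The log2 fold change of *Cish* was 0.32 ± 0.33 (SE) in T_Dysf against Acute-7d and 0.45 ± 0.33 against Acute-2d, and neither made it a DEG. It was a DEG in T_Dysf against Effector (1.87 ± 0.33) and, in the other direction, in Effector against Acute-7d (−1.56 ± 0.33). The first of these calls ended without either replicate of Acute-2d, Acute-7d or T_Dysf, and the second without any library but Effector replicate 2, with log2 fold changes of 1.47 to 2.31 and −1.96 to −1.16 over all alternatives. Both also ended with a fit of only the 2 conditions compared and with a term for the RESUB libraries. In Effector against Acute-2d *Cish* was no DEG (−1.43 ± 0.33), but met the criteria with genes of low level left out (−1.43), with 10 added before the log (−1.43), with other scalings (−1.58 and −1.39) and without Effector replicate 2 (−1.83). *Gm17041*, annotated on the other strand, shares 479 exon bases with *Cish* and stood at 2291 normalized counts in T_Dysf replicate 1, at 5.9 in Acute-7d replicate 1 and at 0.0 in the other 6 libraries. Since strand use is not known, the reads of the 2 entries cannot be told apart. Summed, they gave 18535 and 21105 normalized counts in T_Dysf and a log2 fold change of 0.41 against Acute-7d.

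*Socs1* and *Socs3* were higher in the rested Acute cells than in Effector and T_Dysf cells. SOCS1 blocks JAK kinases directly and SOCS3 acts mainly on receptors of the IL-6 family. *Socs1* (chromosome 16, 10782240 to 10785536, minus strand) stood at 948.5 and 1331 normalized counts in Effector, 2749 and 6481 in Acute-2d, 5661 and 3115 in Acute-7d, and 1676 and 1960 in T_Dysf. The 2 Acute conditions overlapped, T_Dysf lay below them, and Effector lay below T_Dysf. The replicates of each Acute condition lay farther apart than T_Dysf lay from the lower of them, with SDs of 2639 around a mean of 4615 in Acute-2d and of 1800.3 around 4388 in Acute-7d. The log2 fold change of T_Dysf was −1.21 ± 0.51 (SE) against Acute-7d, −1.22 ± 0.51 against Acute-2d and 0.69 ± 0.51 against Effector, and *Socs1* met the DEG criteria in none of the 6 comparisons when all genes were fitted. With genes of low level left out it met them in Effector against Acute-7d (−1.90) and against Acute-2d (−1.91).

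*Socs3* (chromosome 11, 117966079 to 117970047, minus strand) stood at 445.9 and 482.5 normalized counts in Effector, 1652 and 2628 in Acute-2d, 2521 and 1407 in Acute-7d, and 612.8 and 642.3 in T_Dysf. It had the same order of conditions as *Socs1*, with tighter Effector and T_Dysf libraries. Its log2 fold change in T_Dysf was −1.73 ± 0.35 (SE) against Acute-2d, where it was a DEG, and −1.58 ± 0.35 against Acute-7d, where it was not. Against Acute-7d it met the criteria when genes of low level were left out (−1.58) and with other scalings (−1.69 and −1.64). Against Acute-2d it lost the call when any library outside Acute-7d was left out and with a fit of only the 2 conditions compared, with values of −2.07 to −1.40.

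In Effector, *Socs3* was a DEG against both Acute-7d (−2.02 ± 0.35) and Acute-2d (−2.17 ± 0.35). Against Acute-7d the call ended without either Effector library, either T_Dysf library or Acute-7d replicate 1 (−2.44 to −1.60 over all alternatives), and against Acute-2d without any library but those of Acute-7d (−3.01 to −1.83). Both calls ended with a fit of only the 2 conditions compared, and the call against Acute-2d also with the RESUB term (−3.01). In both Acute conditions the same library was the higher one for *Socs1* and *Socs3*, replicate 2 of Acute-2d and replicate 1 of Acute-7d. Over the 8 libraries Pearson's r of the 2 genes was 0.97, and these libraries share their conditions. Acute-7d replicate 1 is the RESUB library of its pair and exceeded its partner in *Cish*, *Socs1*, *Socs2* and *Socs3*, whereas the RESUB Effector libraries were the lowest of all for these 4 genes. The part of the RESUB set in these levels was not tested beyond the fit with its own term.

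*Socs2* showed another order, with the highest level in T_Dysf. Its product is known as a brake on growth hormone signaling. The gene (chromosome 10, 95385362 to 95417180, minus strand) stood at 1065 and 1002 normalized counts in Effector, 1904 and 1196 in Acute-2d, 2687 and 1875 in Acute-7d, and 3595 and 3360 in T_Dysf. Both T_Dysf libraries lay above the other 6 and both Effector libraries below them, with the Acute conditions overlapping in between. The log2 fold change was 0.63 ± 0.28 (SE) in T_Dysf against Acute-7d and 1.20 ± 0.28 against Acute-2d, neither a DEG, and 1.75 ± 0.28 against Effector, a DEG. With genes of low level left out *Socs2* met the criteria against Acute-2d as well (1.20) and in Effector against Acute-7d (−1.12). The call against Effector ended without either Effector or either T_Dysf library and with the RESUB term (1.70 to 2.27 over all alternatives).

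*Socs5* was the least abundant of the SOCS members per kilobase of exon, with means of 11.5 normalized counts in Effector and 40.5 in T_Dysf. Its product has been described as an inhibitor of IL-4 and EGF receptor signaling. The gene (chromosome 17, 87107679 to 87137839, plus strand) stood at 55.7 and 92.3 normalized counts in Effector, 213.8 and 181.4 in Acute-2d, 194.1 and 195.9 in Acute-7d, and 217.5 and 302.5 in T_Dysf. T_Dysf lay above the rest, though its lower library barely exceeded Acute-2d replicate 1, and Effector lay below. Its log2 fold change was 1.82 ± 0.29 (SE) in T_Dysf against Effector, −1.43 ± 0.29 in Effector against Acute-7d and −1.44 ± 0.29 in Effector against Acute-2d, each a DEG, and 0.39 ± 0.29 in T_Dysf against Acute-7d, which was not. The call in T_Dysf against Effector ended without either Acute-7d or either T_Dysf library (1.47 to 2.18), and the Effector calls without any library but Effector replicate 2 (−1.79 to −1.07 and −1.80 to −1.09). All 3 ended with only the 2 conditions compared and with the RESUB term, and the Effector calls with quantile normalization.

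*Socs4*, *Socs6* and *Socs7* varied least between conditions. SOCS6 and SOCS7 have been described as partners of insulin receptor substrates, and SOCS4 as a regulator of EGF receptor signaling. *Socs4* (chromosome 14, 47276931 to 47296102, plus strand) stood at 1355 and 1531 normalized counts in Effector, 1511 and 1045 in Acute-2d, 1382 and 1506 in Acute-7d, and 1619 and 1670 in T_Dysf. *Socs6*, on chromosome 18, stood at 411.0 and 482.2 in Effector, 672.4 and 606.4 in Acute-2d, 642.6 and 587.7 in Acute-7d, and 480.9 and 497.1 in T_Dysf. *Socs7* (chromosome 11, 97362551 to 97398542, plus strand) stood at 974.1 and 1065 in Effector, 1246 and 1186 in Acute-2d, 1272 and 1203 in Acute-7d, and 1107 and 1216 in T_Dysf.

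None of these 3 genes was a DEG in any comparison. T_Dysf lay just above the other libraries for *Socs4*, between Effector and the Acute conditions for *Socs6* with its libraries inside or next to the Effector range, and overlapped Acute-2d and Acute-7d for *Socs7*. In T_Dysf against Acute-7d the log2 fold changes were 0.19 ± 0.19 (SE) for *Socs4*, −0.33 ± 0.11 for *Socs6* and −0.09 ± 0.08 for *Socs7*.

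Counted together, the members differed in direction in T_Dysf against the Acute conditions, with 6 of 10 log2 fold changes above 0 in each comparison, and all 10 were above 0 against Effector. Against Acute-7d 1 of 10 was a DEG (*Spsb1*, higher), where 5.57% of all genes were, 2.54% higher and 3.03% lower. Against Acute-2d 2 of 10 were (*Spsb1* higher, *Socs3* lower), where 7.35% of all genes were, 3.14% higher and 4.21% lower. Against Effector 4 of 10 were, all higher (*Cish*, *Socs2*, *Socs5* and *Spsb1*), where 9.22% of all genes were, 4.47% higher and 4.75% lower. The share was larger among genes that averaged 50 normalized counts or more, as all 10 members did. Fitted alone, 1477 of these 12028 genes were DEGs against Acute-7d, 1697 against Acute-2d and 2218 against Effector. That fit also called *Socs3* against Acute-7d and *Socs2* against Acute-2d, and the same 4 members against Effector. *Spsb1* reached that mean through T_Dysf alone. With a term for the RESUB libraries 0 of the 4 calls against Effector held. Without a T_Dysf library in turn 1 member was called there, without an Acute-7d library 2, and without any other library 3. Against Acute-2d the count was 1 without any library outside Acute-7d. Over the 10 members the log2 fold change had a median of 0.25, 0.38 and 0.82 in these comparisons, against 0 over all genes. The comparisons share their T_Dysf libraries and are not independent.

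Effector cells held less of several members than the rested cells did. In Effector against Acute-7d 3 of 10 were DEGs, all lower (*Cish*, *Socs3* and *Socs5*), where 8.06% of all genes were, 4.18% higher and 3.88% lower. Against Acute-2d 2 of 10 were (*Socs3* and *Socs5*), where 8.78% of all genes were, 4.31% higher and 4.48% lower. Against Acute-7d the count was 0 without Effector replicate 1, Acute-7d replicate 1 or either T_Dysf library, 1 without either Acute-2d library or Acute-7d replicate 2, and 2 without Effector replicate 2. Against Acute-2d it was 0 without Effector replicate 1, either Acute-2d library or either T_Dysf library, and 1 without either Acute-7d library. Of the 12028 genes that averaged 50 normalized counts or more, fitted alone, 1937 were DEGs in Effector against Acute-7d and 2125 against Acute-2d. That fit also called *Socs1* and *Socs2* in Effector against Acute-7d, and *Cish* and *Socs1* against Acute-2d.

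Between Acute-7d and Acute-2d 0 of 10 members met the DEG criteria. Of all genes 0.169% were DEGs there, 0.0782% higher and 0.0905% lower in Acute-7d, and the members' log2 fold changes ran from −0.95 for *Spsb1* to 0.57 for *Socs2*. Without a test, both T_Dysf libraries lay above the other 6 for 4 of 10 members (*Socs2*, *Socs4*, *Socs5* and *Spsb1*; 11.6% of all genes) and below them for 0 (12% of all genes). Both Effector libraries lay below the other 6 for 6 of 10 members (*Cish*, *Socs1*, *Socs2*, *Socs3*, *Socs5* and *Socs7*; 12.7% of all genes) and above them for 0 (14.6% of all genes).

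**Figure D3:**
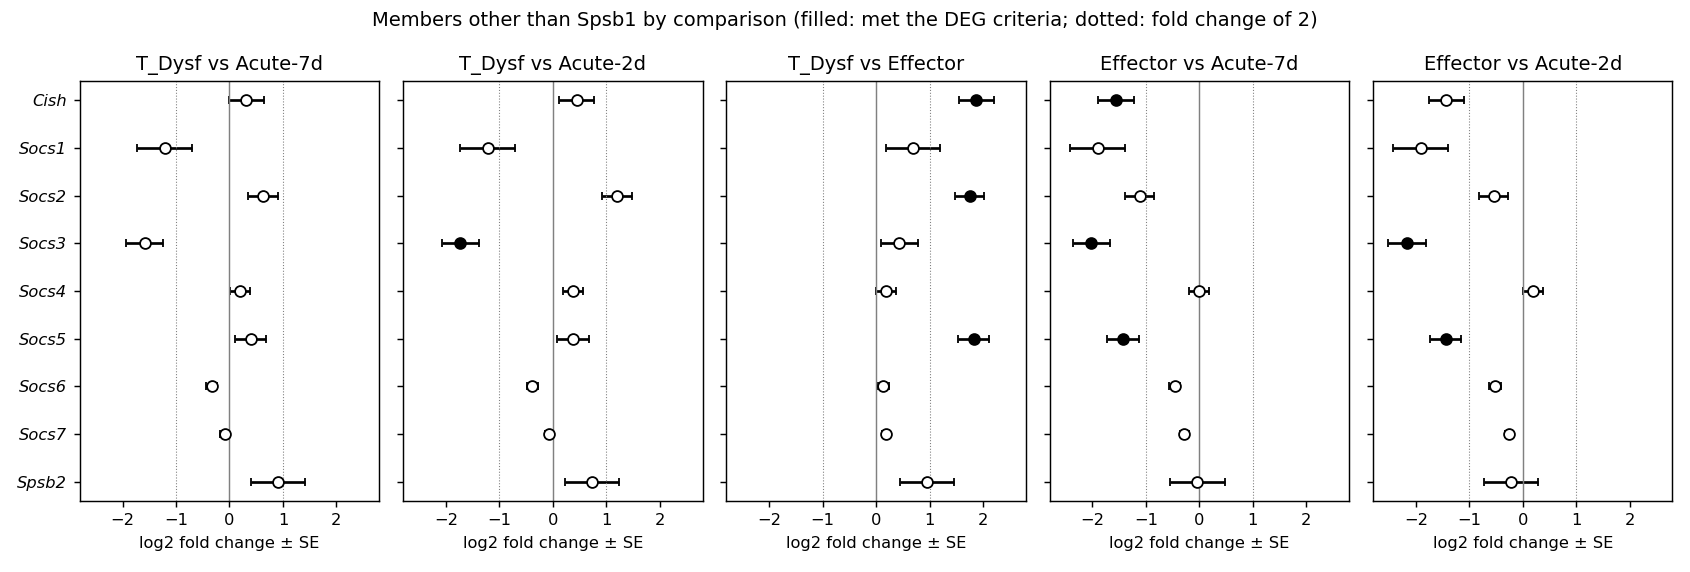
Log2 fold change ± SE of the 9 members other than *Spsb1* in 5 comparisons (n = 2 libraries per condition), with filled points for DEGs and dotted lines at a 2-fold change. *Socs1* and *Socs3* lie below 0 in T_Dysf against both Acute conditions and above 0 against Effector.

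The makeup of the set differed between conditions more than its total did on day 19. Summed over the 10 members per kilobase of exon, the level was 1912 ± 452 normalized counts (SD, n = 2) in Effector cells. It was 5099 ± 772 in Acute-2d cells, 5269 ± 1449 in Acute-7d cells and 4980 ± 657 in T_Dysf cells. The 3 totals of day 19 differed by less than the SD of any of them. *Cish* made up 56.0% and 60.4% of this sum in the T_Dysf libraries and 34.1% to 51.1% in the other 6. *Socs1* made up 12.4% to 12.8% in T_Dysf and 20.8% to 39.5% in the Acute libraries. *Spsb1* made up 6.0% and 6.84% in T_Dysf and at most 0.06% elsewhere. These sums and shares depend on the annotated exon lengths, which ran from 1658 bases for *Spsb2* to 11349 for *Socs6*.

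**Figure D4:**
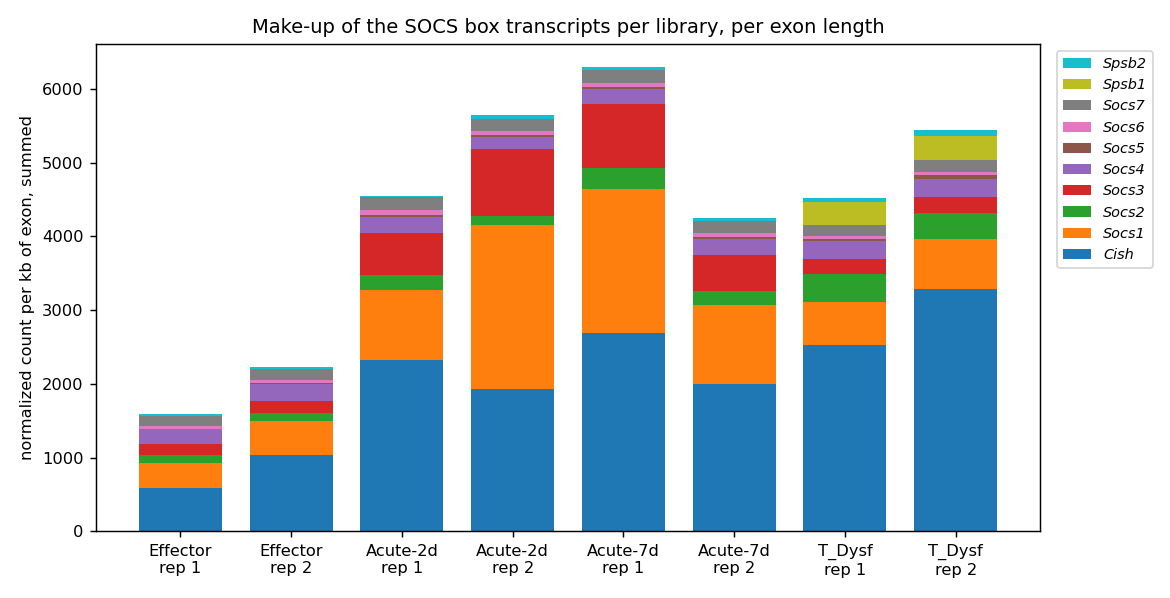
Level per kilobase of exon of the 10 members, stacked by library. The stacks of the 6 libraries of day 19 reach from 4245 to 6294 normalized counts per kilobase and those of Effector 1593 and 2232, with *Cish* the thickest band in each library but Acute-2d replicate 2.

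The genes whose levels ran most like a member over the 8 libraries were looked up among 12018 genes that averaged 50 normalized counts or more. For *Spsb1* these were *Nmrk1* (r = 0.996), a nicotinamide riboside kinase, *BC031181* (r = 0.989) and *Vipr2* (r = 0.989), a receptor for vasoactive intestinal peptide. *Vipr2* stood at 12 to 44.2 normalized counts outside T_Dysf and at 2508 and 2813 in T_Dysf, and *Nmrk1* at 189.2 to 232.8 and at 435.0 and 442.1. Altogether 99 genes had r over 0.95 with *Spsb1*, whose r is set by the step between 2 libraries and 6.

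For *Cish* the likest genes were *Mib1* (r = 0.993), *Helz* (r = 0.989) and *H3f3b* (r = 0.989), and for *Socs2* they were *Nedd9* (r = 0.991), *Accs* (r = 0.984) and *Trim11* (r = 0.983). For *Socs3* they were *Fam102a* (r = 0.985), *Ccm2* (r = 0.984) and *Cdkn1b* (r = 0.981). For *Socs1* they were *Gba2* (r = 0.991), *Gm17334* (r = 0.974) and *Mfsd12* (r = 0.963), and 6 genes passed 0.95. *Gm17334* lies on the minus strand of chromosome 11 (53772281 to 53773187) within the bounds of *Irf1* on the plus strand (53770014 to 53778374). All of these are correlations over the same 8 libraries and 4 conditions.

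The rest of the pathway is given from lists of known genes, and those named are the called ones with the largest fold changes in T_Dysf against Acute-7d or, where none was called there, against Effector. Of 6 elongin, cullin and adaptor genes, the partners of the SOCS box, limma called 0 in every comparison. In T_Dysf against Acute-7d 3 had an unadjusted P under 0.05, and the median log2 fold change was 0.10. Against Effector 5 had, with a median of −0.32. In Effector 6 had against Acute-7d and 5 against Acute-2d, with medians of 0.44 and 0.48. Of 18 other SOCS box genes in the table limma called 0 in T_Dysf against Acute-7d or Acute-2d, with 6 and 7 at an unadjusted P under 0.05. *Asb2*, a partner-binding subunit of cullin ligases, was higher in T_Dysf (1959 normalized counts) than in Effector (313.1), with a log2 fold change of 2.74 ± 0.46 and an adjusted P of 0.0228 (limma's moderated test, Benjamini-Hochberg adjusted, as for every adjusted P here).

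Upstream of the members, 2 of 8 cytokine genes were higher in T_Dysf than in Acute-7d. *Il10* stood at 615.0 and 637.0 normalized counts in T_Dysf and at 0 to 2.23 in the other 6 libraries, at least 196-fold higher than in Acute-7d with 3 reads per library as the floor (adjusted P 0.00579). *Ifng*, the gene of IFN-γ, had a log2 fold change of 2.27 ± 0.31 (adjusted P 0.0208). Of 18 cytokine receptor genes 4 were lower in T_Dysf than in Acute-7d and 0 higher, among them *Il4ra* (−1.53 ± 0.11, adjusted P 0.00485), *Ifngr1* (−1.27 ± 0.08, adjusted P 0.00416) and *Il10ra* (−1.02 ± 0.14, adjusted P 0.0203). The other one, *Il6ra*, averaged below 50 normalized counts over the libraries and had the largest change (−3.70 ± 0.41, adjusted P 0.0129). Its mean was 4.38 in T_Dysf and 70.1 in Acute-7d. Of 4 JAK genes limma called 0 in every comparison. In T_Dysf against Acute-7d 2 had an unadjusted P under 0.05. Against Effector 4 had, with a median log2 fold change of 0.55. In Effector 3 had against Acute-7d and 3 against Acute-2d, with medians of −0.64 and −0.85.

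Downstream, 3 of 9 STAT5 target genes were lower in T_Dysf than in Acute-7d and 0 higher, where 3.03% of all genes were lower and 2.54% higher. The called targets were *Myc* (log2 fold change −1.69 ± 0.22, adjusted P 0.0176), the kinase gene *Pim1* (−1.45 ± 0.20, adjusted P 0.0202) and the cyclin gene *Ccnd2* (−1.12 ± 0.15, adjusted P 0.02). *Cish*, which is a STAT5 target itself, had 0.32 ± 0.33 in that comparison. The median log2 fold change was −1.12 over the STAT5 targets and 0 over all genes.

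Of 10 other JAK-STAT inhibitors, the phosphatase gene *Ptpn6* was higher in T_Dysf than in Acute-7d (1.10 ± 0.13, adjusted P 0.0139). *Ptpn6* was higher in Effector than in Acute-7d as well (1.37 ± 0.13, adjusted P 0.0118). Its mean was 8196 normalized counts in Effector and 6810 in T_Dysf, and it was no DEG between these 2 conditions. Of 4 genes of TGF-β reception and its feedback limma called 0 in T_Dysf against Acute-7d, with 3 at an unadjusted P under 0.05. Against Effector 3 of 4 were higher, *Tgfbr3* (2.58 ± 0.29, adjusted P 0.01), *Tgfbr2* (1.57 ± 0.07, adjusted P 0.0015) and *Tgfbr1* (1.15 ± 0.23, adjusted P 0.0363). Effector also lay below Acute-7d and Acute-2d for *Tgfbr2* (−1.22 and −1.06), *Tgfbr3* (−1.39 and −1.64) and *Smad7* (−1.20 and −1.31), each a DEG. *Tgfbr1* was a DEG in neither (−0.73 and −0.02). The rise of *Tgfbr2* and *Tgfbr3* over Effector was therefore not particular to T_Dysf. Effector and T_Dysf also differ in day, title prefix and sex-linked genes, whose part in these levels was not tested.

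**Figure D5:**
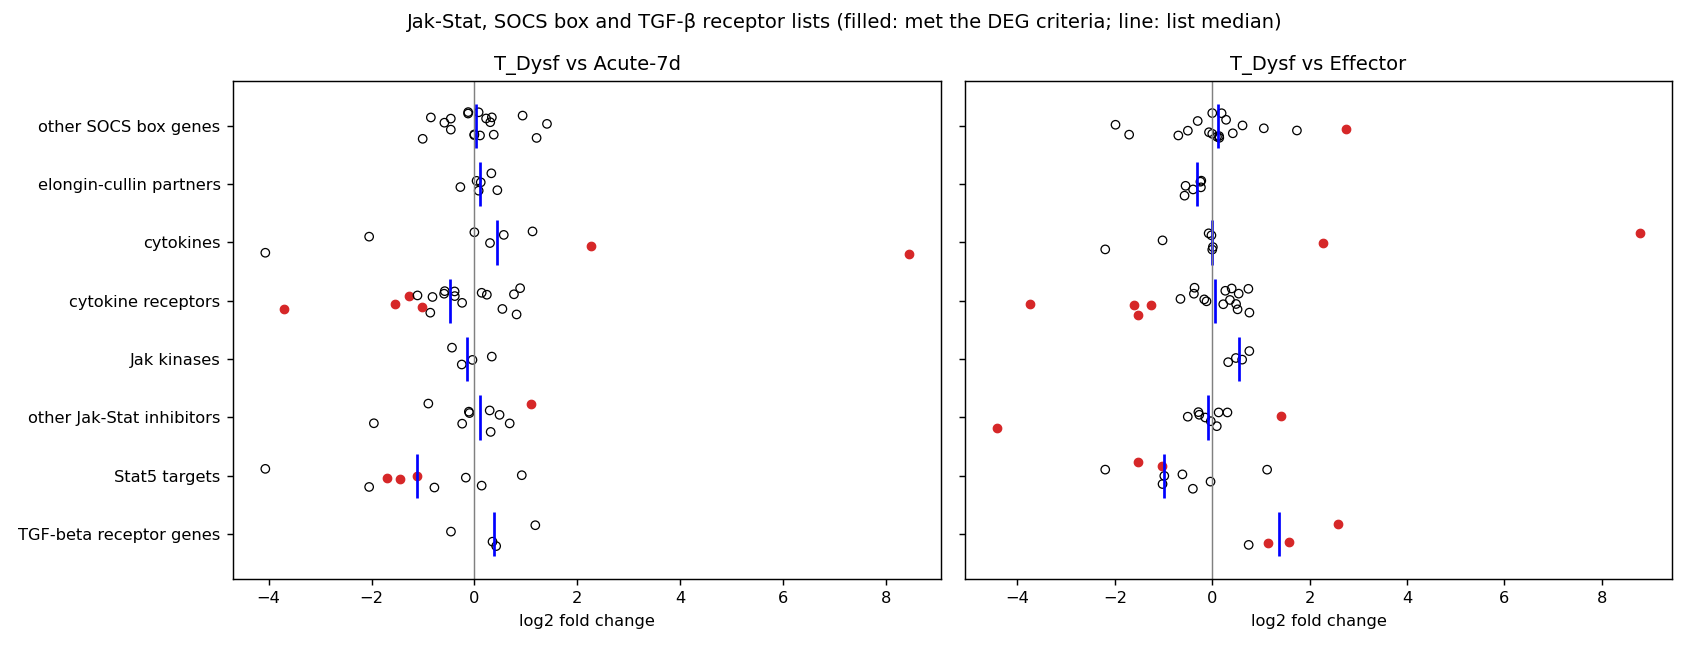
Log2 fold change of the genes of each pathway list, in T_Dysf against Acute-7d and against Effector, with a point per gene, filled for DEGs, and a line at the list median. The STAT5 target list has a median of −1.12 in T_Dysf against Acute-7d, while the elongin and cullin partners and the JAK genes have no filled point.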

How the data were processed

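RNA-Seq of 8 libraries (4 conditions, 2 each) was analysed from 1 deposited table of 24303 genes. The submitters' processing notes name STAR, DESeq2 and mm10. Per the methods, the authors aligned reads, quantified them against RefSeq transcripts in Partek Flow and normalized by the median ratio. The deposited values are a signal, estimated reads divided by a size factor, and are called normalized counts. Whether counting used strand is not given in the sources used here. Depth was taken from the worth of 1 read, the commonest low value of a library. Below 1000 reads 50.0% to 74.8% of values came out as whole reads (tolerance 0.01), so count models were not fitted. No column was left out (0 not used). Besides the labels, only the sex-linked genes bear on how far replicates were separate. The Acute-7d replicates showed the male and the female pattern (*Xist* at 54.5 and 30427 normalized counts). P values measure the spread between these libraries, which in Acute-7d includes this difference.

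log2(normalized count + 1) was fitted for all genes and all libraries with limma 3.58.1 in R 4.3.3 (lmFit, eBayes with trend, 4 group means, no covariate, no filter on low values). All 6 comparisons were two-sided. A DEG needed a 2-fold change or more and a P under 0.05 after Benjamini-Hochberg adjustment. The procedure was tested on simulated data. Counting intervals (95%) and the floor of 3 reads cover counting error only. Positions came from GENCODE vM21 and sequences from RefSeq, both GRCm38. Exon length was the union of all GENCODE exons of a gene, while the authors counted reads against RefSeq transcripts. Tables and figures used Python 3.11.15, numpy 2.4.6, pandas 2.3.3, scipy 1.17.1 and matplotlib 3.10.9.

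The members and the gene lists were chosen with earlier results of these data known. Named were all 10 members, at most 3 called genes per list with a mean of at least 50 and the largest change, and for 5 members the 3 genes of highest Pearson's r. *Il6ra*, a called gene below that mean, was named in addition. The neighbours of *Spsb1* were chosen after its values were seen. Alternatives were other pseudocounts (0.1 and 10), filters on low values, equal 75th percentiles, quantile normalization, a fit of only the 2 groups compared, a RESUB term, a block for the replicate number and leaving out each replicate. *Cish* summed with *Gm17041* was an alternative chosen after seeing the data. Results of 2 of the gene lists are not reported here.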

Additional observations from a re-analysis of the deposited data

How the results depend on the processing

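With 2 libraries per condition and 4 residual degrees of freedom, most calls of single members other than *Spsb1* depended on single libraries or on the model. *Spsb1* stayed a DEG in 18 of 18 alternatives against Acute-7d (log2 fold change 6.82 to 9.37), 18 of 18 against Acute-2d (6.49 to 8.37) and 17 of 18 against Effector (6.68 to 8.95). No member's log2 fold change that was called changed sign. In T_Dysf against Acute-7d 1 member was called, and 2 were, with *Socs3* added, with a filter on the mean or on the maximum (50 or more), with equal 75th percentiles and with quantile normalization. In T_Dysf against Acute-2d the count of 2 became 3 with either filter (*Socs2* added) and 1 with only the 2 groups compared, and 1 to 2 without each replicate in turn. In T_Dysf against Effector the count of 4 became 2 with only the 2 groups compared and 0 with a term for the RESUB libraries, and 1 to 3 without each replicate. In Effector against Acute-7d the count of 3 became 5 with either filter, 0 with only the 2 groups compared and 1 with the RESUB term, and 0 to 2 without each replicate. In Effector against Acute-2d the count of 2 became 4 with either filter, 0 with only the 2 groups compared and 0 with the RESUB term, and 0 to 2 without each replicate. Leaving out genes changes how many are tested and the spread they share, and fitting only 2 groups leaves fewer libraries. The cause of the other changes was not tested. The replicate numbers were not taken as pairs, because replicate differences correlated across genes at −0.199 to 0.197 over the 6 pairs of conditions. With the replicate number as a block the members called were 1 in T_Dysf against Acute-7d (*Spsb1*), 2 against Acute-2d (*Socs3* lost, *Socs2* gained), 3 against Effector (*Cish* lost), 1 in Effector against Acute-7d (*Cish*, *Socs3* and *Socs5* lost, *Socs2* gained) and 0 in Effector against Acute-2d (*Socs3* and *Socs5* lost). Levels near the floor of 3 reads, as for *Spsb1* outside T_Dysf, limit the precision of its folds.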
